A study of Homo sapiens with 3 samples.

Results

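The ABC drug efflux transporters are membrane pumps that use ATP to move drugs, drug conjugates and nucleotides out of cells, and 10 of their genes were followed here: ABCB1, ABCC1, ABCC2, ABCC3, ABCC4, ABCC5, ABCC6, ABCC10, ABCG2 and ABCB6. A probe was taken as theirs when its RefSeq accession belonged to the gene, which gave 18 of the 58201 probes and 10 of the 22439 named genes. 5 of the genes had 1 probe and the other 5 had several. Expression was measured in TK-10, a line derived from a human renal carcinoma, on Agilent arrays of a single colour, with 1 array per treatment. The vehicle cells received 0.1% DMSO, and the treated cells received cordyceps at 750 μg/mL or sunitinib, a receptor tyrosine kinase inhibitor, at 10 μM, each for 48 h. The labels name cordyceps, while the study's methods name cordycepin, the adenosine analogue of these fungi, at another dose, and the files do not settle which was given. What all groups shared was DMEM with 16.7 μM zinc sulfate, the PPARγ agonist troglitazone at 10 μM, nicotinamide at 10 mM, serum at 10% and antibiotics (penicillin-streptomycin) at 1%.

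ABCB1 encodes P-glycoprotein, the pump known best for multidrug resistance and present on the apical side of the renal proximal tubule, and ABCG2 encodes BCRP. Sunitinib is a known substrate and inhibitor of both. The ABCC genes encode the multidrug resistance-associated proteins, which export glutathione and glucuronide conjugates (ABCC1, ABCC2, ABCC3) or nucleotides and nucleoside analogues (ABCC4, ABCC5), while ABCC6 drives the release of ATP from cells, ABCC10 exports taxanes and nucleoside analogues, and ABCB6 transports porphyrins.

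With 1 array per treatment there is no replicate check, and no test or p-value is given. The 3 arrays shared 1 slide and 1 scan. Levels are Feature Extraction's background-subtracted intensities, and ratios are differences of log2 intensity after each array was scaled to its 75th percentile, which was 164.6 on the vehicle, 137.9 on the cordyceps and 78.2 on the sunitinib array. Each ratio carries a 95% limit, 1.96 times the software's combined error of its 2 spots, which covers measurement of the spot and not the spread between cultures. A change was counted when it passed 2-fold in a probe well above background on at least 1 array of the pair. The share of probes well above background was 45.5% on the vehicle, 37.8% on the cordyceps and 38.3% on the sunitinib array. A bright streak crossed the cordyceps array, and 0 of the 18 transporter probes lay in it. Of the renal epithelial markers, 9 of 10 with a probe were well above background on every array, CUBN being the exception, while CDH6 and CDH16 were lower with cordyceps (log2 ratios -2.38 and -2.24). In RNA from whole cultures, fewer cells and less RNA per cell cannot be told apart.

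The stretches before the annotated starts of 4 of these genes are shown because ABCB1, ABCC4 and ABCC6 were lower in sunitinib-treated cells past 2-fold while ABCC5 was not. Each is the 250 bases upstream of the start in RefSeq GRCh38.p14, on the minus strand and written 5′ to 3′ along the gene. They lie at chr7:87713296-87713545 (ABCB1), chr13:95301452-95301701 (ABCC4), chr16:16223495-16223744 (ABCC6) and chr3:184017885-184018134 (ABCC5). Capitals mark matches to the motifs described after them.
ABCB1: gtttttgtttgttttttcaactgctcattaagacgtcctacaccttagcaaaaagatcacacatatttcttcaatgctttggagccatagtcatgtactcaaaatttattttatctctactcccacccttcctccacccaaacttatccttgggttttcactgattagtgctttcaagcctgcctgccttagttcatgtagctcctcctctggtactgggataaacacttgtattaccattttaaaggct
ABCC4: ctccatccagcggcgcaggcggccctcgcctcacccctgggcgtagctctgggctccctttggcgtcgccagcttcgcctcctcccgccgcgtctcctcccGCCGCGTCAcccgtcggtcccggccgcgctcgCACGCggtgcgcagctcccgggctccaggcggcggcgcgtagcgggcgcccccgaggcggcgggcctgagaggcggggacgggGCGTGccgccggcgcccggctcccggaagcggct
ABCC6: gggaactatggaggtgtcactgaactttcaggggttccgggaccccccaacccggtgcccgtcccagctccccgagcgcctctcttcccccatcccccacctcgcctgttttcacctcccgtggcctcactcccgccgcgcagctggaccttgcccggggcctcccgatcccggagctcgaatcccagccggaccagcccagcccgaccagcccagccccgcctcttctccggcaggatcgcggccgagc
ABCC5: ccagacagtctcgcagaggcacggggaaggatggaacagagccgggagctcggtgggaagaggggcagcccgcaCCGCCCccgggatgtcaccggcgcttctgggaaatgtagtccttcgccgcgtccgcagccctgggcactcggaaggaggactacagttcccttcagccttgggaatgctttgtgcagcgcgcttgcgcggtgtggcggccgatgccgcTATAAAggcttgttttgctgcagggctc

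A window was matched for 8 of the 10 genes. ABCC1 and ABCC3 were not matched. Apart from that of ABCC10, each window lay at the outer end of its gene's annotated span, the outermost start. A start further downstream, such as ABCB1 also has, was not read. Letters were searched on both strands. The GC box GGGCGG was in 3 of the 8 windows (ABCC5, ABCC10, ABCB6) and in 42.6% of all 35116 windows. These 35116 do not cover every chromosome, and they were not reduced to 1 per gene as those of the transporters were. The CCAAT box CCAAT was in 1 of the 8 (ABCB6) and in 32.0% of all. The AHR core GCGTG, bound by the aryl hydrocarbon receptor, was in 1 of the 8 (ABCC4, with 2 matches) and in 32.2% of all. The antioxidant response core TGACNNNGC was in 2 of the 8 (ABCC4, ABCB6) and in 10.9% of all, and the TATA box TATAAA in 2 of the 8 (ABCC2, ABCC5) and in 10.7% of all. The ABCB1 and ABCC6 windows held no match to these letters. They differed in base composition, with a GC content of 39.2% in the ABCB1 window, 70.8% in the ABCC6 window, 64.8% in the ABCC5 window and 80.4% in the ABCC4 window, against a median of 58.0% over all windows.

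Of the 10 transporter genes, 8 were well above background on at least 1 array and could be compared, and ABCC2 and ABCG2 were not on any. In sunitinib-treated cells, ABCB1, ABCC4 and ABCC6 were more than 2-fold lower than in vehicle-treated cells by the brightest probe of each gene, which is 3 of 8, and 0 of 8 were more than 2-fold higher. Over all 14912 genes compared, 6.53% were lower and 6.5% were higher past 2-fold. With the normexp background correction in place of the software's, the count lower was 0 of 8 at an offset of 50 and 1 of 8 (ABCC4) at an offset of 0, where 5.65% and 5.66% of all genes were lower. In cordyceps-treated cells, 0 of 8 were more than 2-fold lower and 0 of 8 were higher, where 2.76% and 2.99% of 14786 genes were, shares that come to fewer than 1 gene in 8. The median log2 ratio of the 8 genes was -0.47 for sunitinib and -0.12 for cordyceps, beside a median of 0.00 over all genes in each comparison. Both comparisons use the same vehicle array. For cordyceps, 7 of the 8 genes were below 0, where 48.0% of all genes were. With arrays scaled to their medians 3 of 8 were, and the median of all measured genes was then 0.23.

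**Figure D1:**
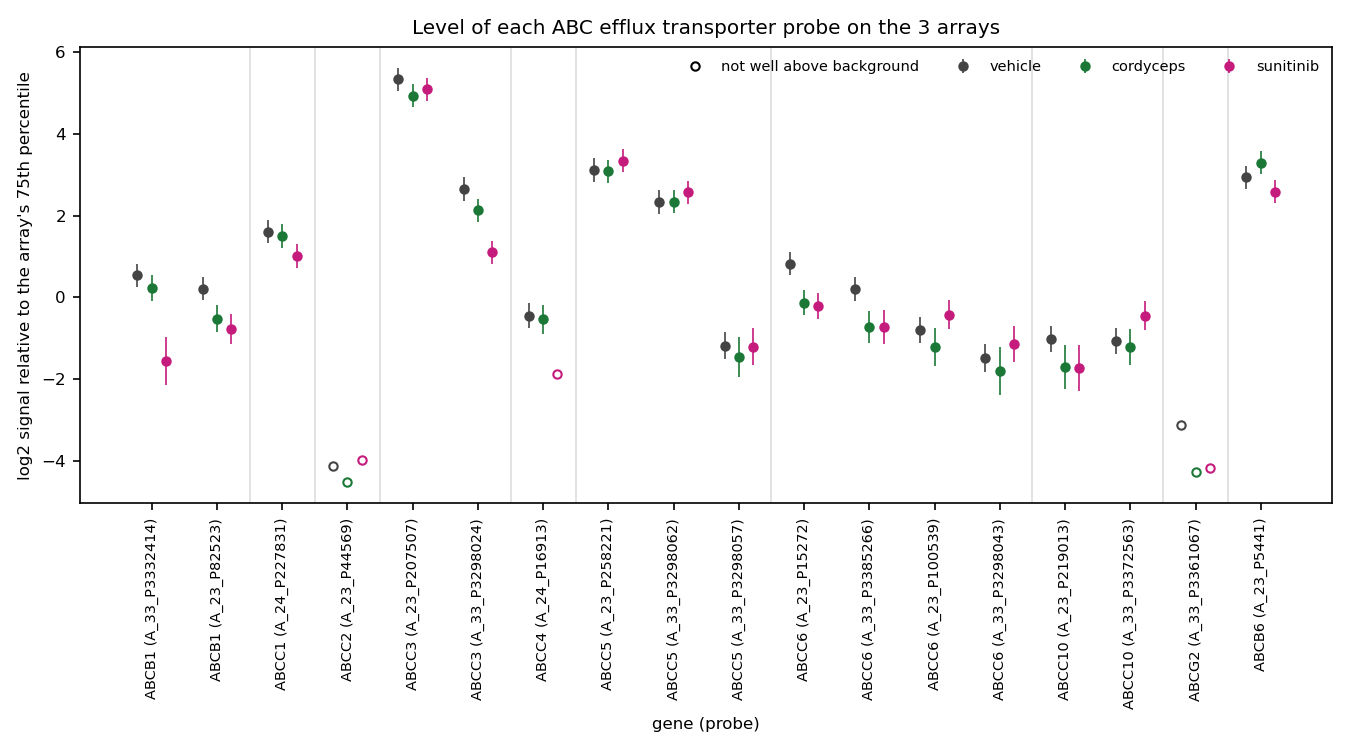
Level of each of the 18 transporter probes on the vehicle, cordyceps and sunitinib arrays, as log2 signal relative to the array's 75th percentile, with bars for the 95% limit of the software's error and open circles where the probe was not well above background. Heights can be compared between arrays within a probe but not between probes, and the sunitinib points of ABCB1 probe A_33_P3332414 and of ABCC4 sit below those of the vehicle and cordyceps arrays.

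ABCB1 had the lowest measured ratio of the transporters with sunitinib, where ABCC4 has a bound only. Its brighter probe, A_33_P3332414, had an intensity of 239 on the vehicle, 160.4 on the cordyceps and 26.5 on the sunitinib array. The vehicle and cordyceps levels did not differ beyond the limit, with a log2 ratio of -0.32 (95% limit 0.43), and the sunitinib level was below both. It was 4.27-fold below vehicle (log2 ratio -2.10, 95% limit 0.65), and 1.19% of all genes compared had a lower ratio. The cordyceps level was 3.43-fold above the sunitinib level (log2 ratio 1.78, 95% limit 0.66). The other ABCB1 probe, A_23_P82523, read 190.8, 95.7 and 45.3 on the vehicle, cordyceps and sunitinib arrays. By this probe, sunitinib was just past 2-fold below vehicle (log2 ratio -1.001, 95% limit 0.47) and cordyceps 1.67-fold below (log2 ratio -0.74, 95% limit 0.44). Both probes were thus lower with sunitinib, while the sizes differed by 1.09 on the log2 scale, more than the 95% limit of 0.80 for that difference. Before background subtraction, the spot intensity of the brighter probe was 275.5 on the vehicle, 224 on the cordyceps and 96 on the sunitinib array, over a local background of 40 to 46. Under the normexp background correction, which uses the local background alone, both probes kept the direction for sunitinib. There A_33_P3332414 had a log2 ratio of -0.83 with an offset of 50 and -1.36 with an offset of 0, while A_23_P82523, then the brighter of the pair, had -0.63 and -0.92, so ABCB1 was not past 2-fold by the brightest probe.

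ABCB1 lies beside ABCB4, its close relative on chromosome 7, which exports phospholipid into bile. The ABCB4 probe read 1290 on the vehicle, 801 on the cordyceps and 540 on the sunitinib array, a log2 ratio of -0.18 for sunitinib and -0.43 for cordyceps. ABCB4 was therefore within 2-fold of vehicle with both agents. The genes with the pair of log2 ratios most like that of ABCB1 were CLDN16, MACC1 and GINS2, at distances of 0.11, 0.12 and 0.14 over the 3 arrays. In all, 7 of 12471 genes lay within 0.2 of it.

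ABCG2, the other transporter of sunitinib, had 1 probe, with intensities of 18.8 on the vehicle, 7.15 on the cordyceps and 4.29 on the sunitinib array. None of these was well above background, so no ratio is given. ABCC2, the apical exporter of conjugates, likewise read 9.42, 5.94 and 4.96, and on no array was it well above background.

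ABCC1, the basolateral pump for glutathione conjugates, read 499.7 on the vehicle, 391 on the cordyceps and 157.6 on the sunitinib array. The vehicle and cordyceps levels were within the limit of each other (log2 ratio -0.10, 95% limit 0.41). The sunitinib level was 1.51-fold below vehicle, a log2 ratio of -0.59 that passed the limit of 0.41 but not 2-fold, and it was also below the cordyceps level (log2 ratio of cordyceps over sunitinib 0.49, 95% limit 0.41).

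ABCC3, the pump that carries glucuronides and bile salts across the basolateral membrane, had 2 probes on different transcripts. The probe on the NM_003786 transcript read 6658 on the vehicle, 4229 on the cordyceps and 2677 on the sunitinib array. None of its levels differed from another beyond the limit of 0.40, with log2 ratios of -0.24 for sunitinib and -0.40 for cordyceps. The probe on the NM_001144070 transcript read 1034, 604 and 167.2 on the same arrays. Here every level differed from the others beyond its limit, with cordyceps 1.43-fold below vehicle (log2 ratio -0.52, 95% limit 0.40) and sunitinib 2.94-fold below (log2 ratio -1.55, 95% limit 0.41). For sunitinib the probes differed by 1.31, past the 95% limit of 0.57, so the call for ABCC3 depends on the probe read, and whether the transcripts account for it was not tested.

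**Figure D2:**
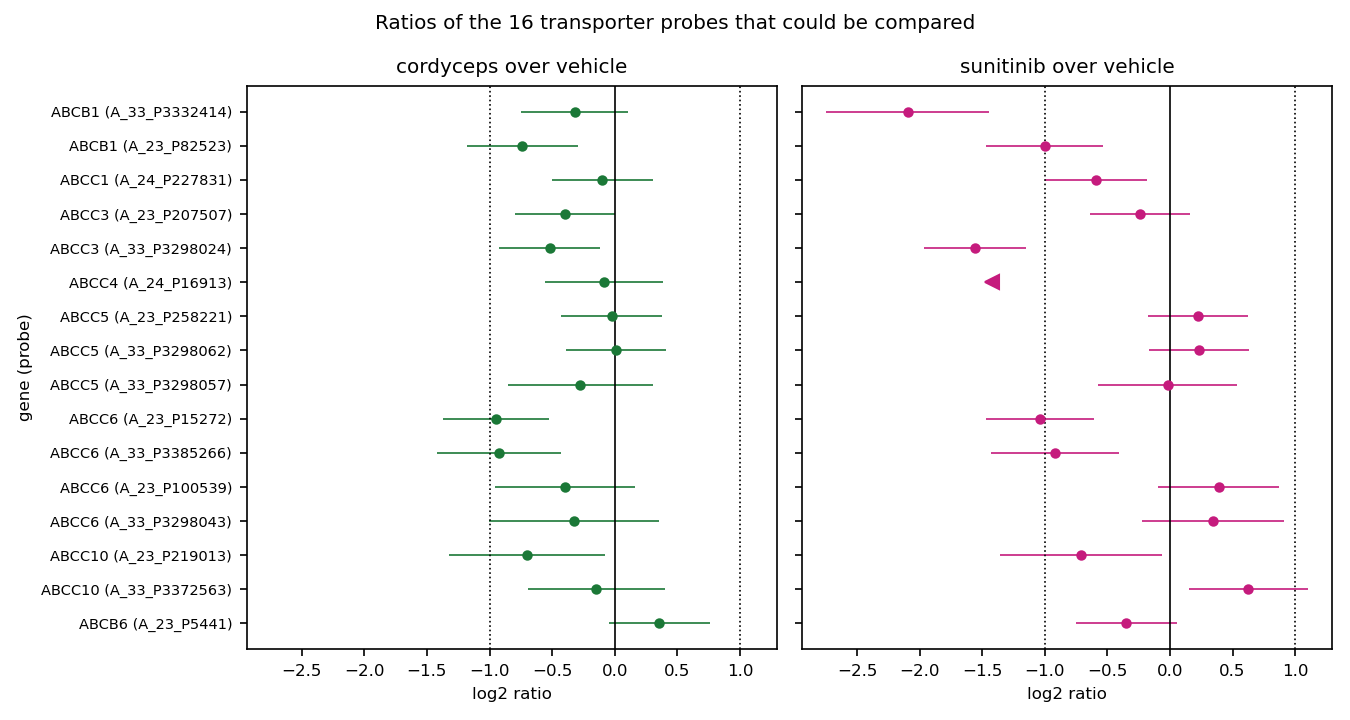
Log2 ratios of cordyceps over vehicle and sunitinib over vehicle for the 16 transporter probes that could be compared, with bars for the 95% limit of the software's error, dotted lines at 2-fold and a triangle for the bound of ABCC4. Of the 16 probes, 5 were more than 2-fold lower with sunitinib and 0 with cordyceps.

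ABCC4, which exports cyclic nucleotides, urate and nucleoside analogues at the apical membrane of the proximal tubule, had 1 probe, on chromosome 13. It read 120.2 on the vehicle and 94.7 on the cordyceps array, and 21.3 on the sunitinib array, where it was not well above background. The vehicle and cordyceps levels did not differ beyond the limit (log2 ratio -0.09, 95% limit 0.47). The sunitinib level was counted as a bound. It was the probe's own signal, which lay above the lowest intensity well above background on that array (18.3), so its folds are not minimum values. This put sunitinib 2.68-fold below vehicle (log2 ratio -1.42, 95% limit 0.74) and 2.53-fold below cordyceps (95% limit 0.77). Of all genes, 2.96% had a ratio under -1.42. ABCC4 kept a bound past 2-fold with the normexp correction at an offset of 0 (log2 -1.02) and not at an offset of 50 (log2 -0.40).

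ABCC5, the related exporter of cyclic nucleotides and nucleotide analogues, had 3 probes that differed from each other by less than their limit. The brightest read 1427 on the vehicle, 1174 on the cordyceps and 792 on the sunitinib array, with log2 ratios of -0.03 for cordyceps and 0.22 for sunitinib (95% limit 0.40 each). The probe A_33_P3298062 read 829, 699 and 463, with log2 ratios of 0.01 and 0.23, and the dimmest, A_33_P3298057, read 72.2, 49.99 and 33.9, with log2 ratios of -0.27 and -0.02. None of the 3 probes passed its limit with either agent. ABCC5 and ABCC4 thus read differently with sunitinib, ABCC5 within 2-fold of vehicle by 3 probes and ABCC4 past 2-fold below by 1.

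ABCC10, a pump for taxanes and nucleoside analogues on chromosome 6, had 2 probes that went opposite ways. The probe A_33_P3372563 read 78.2 on the vehicle, 59.2 on the cordyceps and 57.3 on the sunitinib array, which put sunitinib above vehicle by a log2 ratio of 0.63 (95% limit 0.48). The probe A_23_P219013 read 81.5, 42.0 and 23.7, which put sunitinib below vehicle by a log2 ratio of -0.71 (95% limit 0.65) and cordyceps below by -0.70 (95% limit 0.62). The difference of 1.34 between the probes for sunitinib passed its limit of 0.80, so no direction is given for ABCC10. Neither probe passed 2-fold with either agent.

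ABCC6, in which mutations cause pseudoxanthoma elasticum, had 4 probes on chromosome 16. The brightest, A_23_P15272, read 290.5 on the vehicle, 126 on the cordyceps and 67.3 on the sunitinib array. Vehicle was highest and the treated arrays did not differ from each other beyond the limit (log2 ratio of cordyceps over sunitinib 0.09, 95% limit 0.45). Sunitinib was 2.05-fold below vehicle (log2 ratio -1.04, 95% limit 0.43), just past 2-fold, and cordyceps 1.93-fold below (log2 ratio -0.95, 95% limit 0.42), just short of it. Among all genes compared, 6.20% had a lower ratio with sunitinib and 3.20% with cordyceps. The probe A_33_P3385266 read 188.2, 82.9 and 47.3, and was 1.89-fold below vehicle with sunitinib and 1.90-fold below with cordyceps. Both probes are annotated to the NM_001079528 transcript.

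The dimmer ABCC6 probes were not below vehicle with sunitinib. The probe A_23_P100539, on the NM_001171 transcript, read 93.9 on the vehicle, 59.6 on the cordyceps and 58.3 on the sunitinib array, a log2 ratio of 0.39 for sunitinib. The probe A_33_P3298043, on NM_001079528 like the brighter pair, read 58.8, 39.4 and 35.4, a log2 ratio of 0.34. Neither passed its limit, and the range over the 4 probes with sunitinib, 1.42, was past the limit of 0.65. Averaged over its probes, ABCC6 was no longer past 2-fold with sunitinib (log2 ratio -0.31), nor was it with the normexp correction at an offset of 50 (-0.76) or 0 (-0.93). With cordyceps all 4 probes were below 0, between -0.95 and -0.32, and differed by less than their limit. ABCC6 has near-identical pseudogenes, and the probe of ABCC6P1 was on no array well above background, with intensities of 14.9, 7.91 and 10.1; how far the ABCC6 probes read pseudogene RNA was not tested. The genes nearest to ABCC6 in their pair of ratios were PCDHGA8, ULK4 and KCNIP3, at distances of 0.03, 0.04 and 0.06, and 30 of 12471 genes lay within 0.2.

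ABCB6, the porphyrin transporter, was the only gene of the 8 above vehicle with cordyceps, and its ratio did not pass the limit. It read 1258 on the vehicle, 1350 on the cordyceps and 470 on the sunitinib array, with log2 ratios of 0.36 for cordyceps and -0.35 for sunitinib (95% limit 0.40 each). Its levels followed the order cordyceps, vehicle, sunitinib, in which neighbours did not differ beyond the limit while the cordyceps level was 1.63-fold above the sunitinib level (log2 ratio 0.71, 95% limit 0.40).

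Set directly against each other, the treated arrays differed past 2-fold in ABCB1 and ABCC4, both higher on the cordyceps array, which is 2 of 8 genes where 9.52% of 13889 genes were. The other ABCB1 probe, A_23_P82523, did not differ between them beyond its limit (log2 ratio 0.26, 95% limit 0.50). None of the 8 was more than 2-fold lower on the cordyceps array, where 7.64% of genes were. Over single probes, 5 of 16 were more than 2-fold lower with sunitinib (5.67% of 27147 probes) and 0 of 16 with cordyceps (2.49% of 26872). None was more than 2-fold higher with either agent, where 8.08% of probes were with sunitinib and 3.6% with cordyceps. The 5 probes were the 2 of ABCB1, the NM_001144070 probe of ABCC3, the ABCC4 probe and the brightest ABCC6 probe. Past their own limit of error were 9 probes with sunitinib, 8 lower and 1 higher, and 5 with cordyceps, all 5 lower. The share of all probes past such a limit was not computed, so these counts have no background to be read against. Disagreement between probes was seen in 4 of the 5 transporters with several probes for sunitinib, where the gap between the highest and lowest probe was over 1.0 in ABCB1, ABCC3, ABCC6 and ABCC10. Over all 2956 genes with several measured probes the gap was over 1.0 in 9.27%, and its median was 0.33.

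Of the other ABC family genes, 37 had a probe, and they include lipid and peptide transporters. Of 24 compared with sunitinib, 1 was higher and 3 were lower past 2-fold, and of 25 compared with cordyceps 2 were higher and 2 lower. Over all genes, 6.5% were higher and 6.53% lower with sunitinib, and 2.99% and 2.76% with cordyceps. The same shares stand beside the counts of each list below. ABCA1, which loads cholesterol onto apolipoproteins, read 1465 on the vehicle, 988 on the cordyceps and 140.4 on the sunitinib array, with a log2 ratio of -2.31 for sunitinib and -0.31 for cordyceps, and its other probe had a bound of -1.75 for sunitinib and a log2 ratio of -0.79 for cordyceps. ABCA12, a lipid transporter of the skin barrier, read 385, 102.3 and 27.4 and was lower with both agents (log2 ratio -1.66 for cordyceps and -2.74 for sunitinib). CFTR, the chloride channel of the family, read 180.2 on the vehicle array and was not well above background on the treated arrays, where it was lower by a log2 bound of -2.32 with cordyceps and -2.22 with sunitinib. ABCG1, a sterol exporter, was above vehicle with cordyceps (log2 ratio 1.46) and ABCG4 with sunitinib (log2 ratio 1.26), but these calls were kept in 10 and 9 of 12 ways of processing, and neither under normexp with an offset of 50. The ABCC8 probe, counted among the 2 higher with cordyceps, lay in the bright streak of the cordyceps array and is not given a value.

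Genes that control the expression of efflux transporters were read next. Of 20 regulators compared, 1 was higher with cordyceps and 0 with sunitinib, and 0 were lower with either, where 2.99% and 6.5% of all genes were higher and 2.76% and 6.53% lower. Their median log2 ratio was 0.01 with cordyceps and 0.23 with sunitinib. PPARG, the receptor that troglitazone activates, read 218.9 on the vehicle, 497.9 on the cordyceps and 133.4 on the sunitinib array, a log2 ratio of 1.44 for cordyceps and 0.36 for sunitinib, and its other probe had a log2 ratio of 1.36 for cordyceps. NR1I2, the pregnane X receptor that induces ABCB1, and NFE2L2, the antioxidant response factor, were on no array well above background by the probes used. AHR, whose core motif was in the ABCC4 window, had log2 ratios of -0.04 for cordyceps and -0.44 for sunitinib.

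Proteins that hold transporters at the membrane were compared for 14 genes, of which 1 was higher and 1 lower with cordyceps, and 0 higher and 1 lower with sunitinib. Their median log2 ratio was -0.05 with cordyceps and -0.03 with sunitinib. PDZK1, a scaffold that binds ABCC4 and ABCC2 in the kidney, read 86.0 on the vehicle array and was not well above background with cordyceps (11.1) or sunitinib (5.20), log2 bounds of -1.25 and -1.16, which were past 2-fold in 10 and 9 of 11 ways of processing. The kinase PIM1, which stabilises ABCB1 and ABCG2, was just past 2-fold above vehicle with cordyceps (log2 ratio 1.02), a call kept in 7 of 12 ways of processing, and was not past 2-fold with sunitinib (log2 ratio -0.10). EZR, which ties ABCB1 to the cytoskeleton, was within 2-fold with cordyceps (log2 ratio -0.04) and sunitinib (log2 ratio 0.28).

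**Figure D3:**
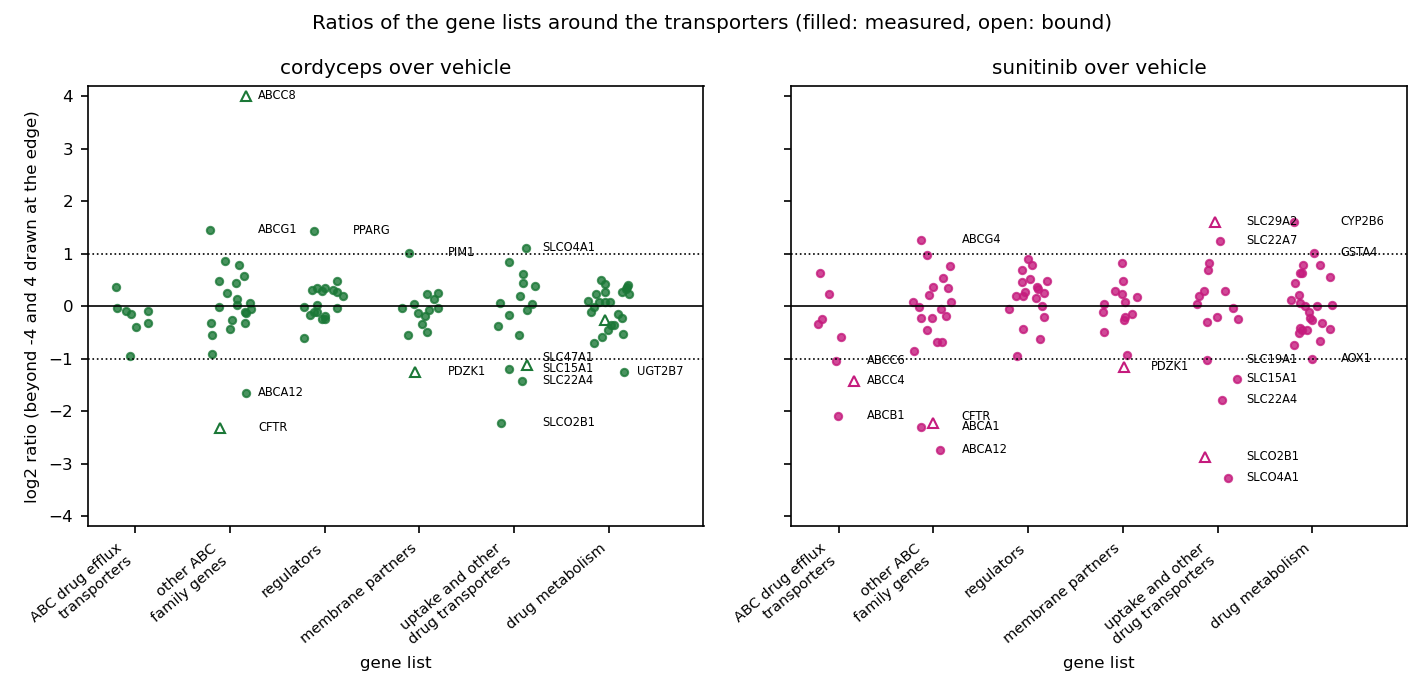
Log2 ratios over vehicle of the efflux transporters and of 5 lists of related genes, 1 panel per agent, with filled circles for measured ratios, open triangles for bounds, dotted lines at 2-fold, names for genes past it and ABCC8, which lay in the bright streak, drawn at the upper edge. The regulators hold no gene past 2-fold on the lower side, and the uptake transporters hold genes past 2-fold on both sides in each panel.

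Drug uptake and other transporters of the solute carrier families had 1 gene higher and 4 lower of 18 compared with cordyceps, and 2 higher and 5 lower of 19 with sunitinib, around a median log2 ratio of 0.00 with each. SLCO2B1, an uptake carrier of organic anions, was lower with cordyceps (log2 ratio -2.22) and by a bound of -2.87 with sunitinib. SLC22A4, the ergothioneine carrier, read 395 on the vehicle, 123.5 on the cordyceps and 54.7 on the sunitinib array, log2 ratios of -1.42 and -1.78. SLC15A1, a peptide carrier, had log2 ratios of -1.19 and -1.39. SLCO4A1, another organic anion carrier, went opposite ways, with 484.5 on the vehicle, 876 on the cordyceps and 23.8 on the sunitinib array, log2 ratios of 1.11 and -3.27. SLC47A1, which extrudes organic cations into urine, was lower with cordyceps by a bound of -1.13, a call kept in 7 of 11 ways of processing. With sunitinib, SLC22A7, an organic anion carrier, was higher (log2 ratio 1.24), as was SLC29A2, a nucleoside carrier, by a bound of 1.61, calls kept in 9 of 12 and 9 of 11 ways of processing. SLC19A1, the reduced folate carrier, was lower with sunitinib (log2 ratio -1.03), while its other probe had a log2 ratio of 0.25. Of 27 genes of drug metabolism compared, 0 were higher and 1 lower with cordyceps, and 2 higher and 1 lower with sunitinib. UGT2B7, which makes glucuronides, was lower with cordyceps (log2 ratio -1.25). With sunitinib AOX1 was lower (-1.01) and CYP2B6 (1.61) and GSTA4 (1.02) were higher, but the other CYP2B6 probe had a bound of -0.69. GSTA4 was past 2-fold in 7 of 12 ways of processing and below 0 in 1 (log2 ratio -0.06). Its log2 ratio was 0.60 under normexp at an offset of 50 and 0.82 by the mean of its probes. AOX1 was past 2-fold in 9 of 12.

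Markers of other cell types were read beside these values. Of 4 fibroblast markers, 3 were well above background on every array, and the summed signal of the list over the array's 75th percentile was 40.9 with vehicle, 12.9 with cordyceps and 12.2 with sunitinib, with COL3A1 on no array well above background. COL1A1 read 5308, 1069 and 384.8, log2 ratios of -2.06 with cordyceps and -2.71 with sunitinib. It made up most of the sum on the vehicle and cordyceps arrays, while PDGFRB, at 531.6, was the largest part with sunitinib. DCN had log2 ratios of -1.81 and -3.43, and its other probe gave no ratio with either agent. PDGFRB did not pass 2-fold, with log2 ratios of -0.19 and 0.66. By their brightest probes, ABCC6, ABCB1, ABCC1, ABCC3 and ABCC4 were below vehicle on both treated arrays as the sum was, some within their limit. The dimmer ABCC6 probes were above vehicle with sunitinib. The part of these markers in the result was not tested. Of 3 leukocyte markers, CD14 alone was well above background on every array, and the summed signal was 4.41, 2.89 and 2.33. CD14 was lower with sunitinib (log2 ratio -1.50). PTPRC was higher (2.39) by a dim probe that read 18.4 on the vehicle and 45.7 on the sunitinib array. Another PTPRC probe gave no ratio, and the rest could not be compared. On no array was CD3E well above background. Of the remaining lists, 2 of 3 renal carcinoma markers (VIM and MME, not CA9), 2 of 4 hepatocyte markers and 1 of 3 endothelial markers were well above background on every array. MME was higher with cordyceps (log2 ratio 1.15) and the endothelial marker VWF lower with sunitinib by a bound of -1.33. This VWF call was kept in 8 of 11 ways of processing, and the other VWF probe had a log2 ratio of -0.09.

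**Figure D4:**
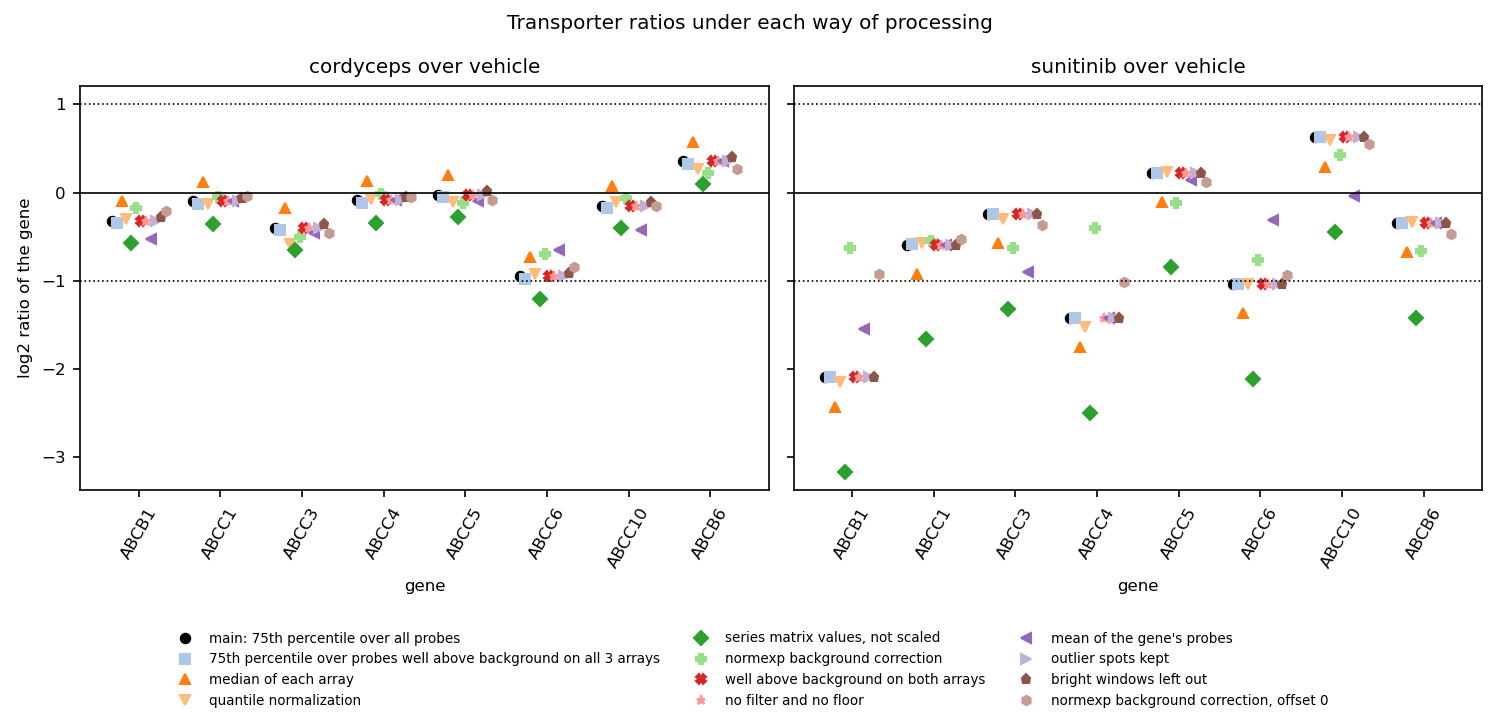
Log2 ratio over vehicle of the 8 transporter genes under 12 ways of processing the arrays, 1 symbol for each, with cordyceps on the left, sunitinib on the right and dotted lines at 2-fold. ABCB1 is below 0 for sunitinib in each of the 12 and past 2-fold in all but the 2 with the normexp correction.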

How the data were processed

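RNA of TK-10 cells was measured on 3 single-colour arrays, 1 each of vehicle, cordyceps and sunitinib, grouped by the agent in the labels. The authors deposited Feature Extraction 11.5.1.1 output, a linear intensity per spot after background subtraction and detrending, and a table of the same probe intensities, not scaled between arrays. The file headers name hg19. The study's methods describe another array and a red over green ratio, and only their 2-fold limit was used here.

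Without control and outlier spots, the mean over each probe's spots was taken on a log2 scale, minus the array's 75th percentile. Probes were named through RefSeq accessions in a GRCh38.p14 table, used for names and promoter windows only. A gene was read by its brightest probe. Where the dimmer side was not well above background, it was replaced, as a bound, by the lowest intensity well above background on that array, or the probe's own if higher. Genes whose bound was not above 1 were kept among those compared with a value of 0. Precision is limited by the number of arrays.

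The named genes were the 10 transporters with every probe. Of each other list, all genes past 2-fold were named where at most 8 were, and otherwise the 3 highest and 3 lowest measured ratios. A few genes were left out of the lists and are not reported here. The genes nearest in pattern were taken by Euclidean distance of the 2 log2 ratios over vehicle. AHR, NR1I2, NFE2L2, EZR and ABCB4 were added for their relation to the transporters after values were seen. The transporters, lists and settings were chosen with earlier results of these data known. Alternatives changed the scaling (percentile over detected probes, median, quantile, none), background correction (normexp on median spot and background intensity, offset 50), filter, probe summary, outlier spots and bright windows. Normexp with an offset of 0 was chosen after seeing the data. Python 3.11.15, numpy 2.4.6, pandas 2.3.3, matplotlib 3.10.9, R 4.3.3 and limma 3.58.1 were used, and the ratio and call steps were tested on simulated data.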

Additional observations from a re-analysis of the deposited data

How the results depend on the processing

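No paired analysis was possible because each treatment has 1 array, so the groups share a single replicate number. ABCB1, ABCC4 and ABCC6 stayed the transporters past 2-fold below vehicle with sunitinib under the other percentile, the median and quantile scalings, and with outlier spots kept or bright windows left out. Under these, 13.0% of all genes were lower with median scaling and 6.52% to 6.98% with the others. Without scaling the count was 6, with ABCC1, ABCC3 and ABCB6 added, where 53.7% of all genes were lower. With normexp it was 0 at an offset of 50 and 1 (ABCC4) at an offset of 0, the latter chosen after seeing the data. ABCC6 then had log2 ratios of -0.76 and -0.93. The cause was not tested. Requiring detection on both arrays left ABCB1 and ABCC6, where 5.79% of all genes were lower. The mean of the probes left ABCB1 and ABCC4, where 5.90% were. No filter added ABCG2, which was not well above background, where 6.74% were. With cordyceps, 1 transporter was lower without scaling (ABCC6, log2 ratio -1.21) and 1 without a filter (ABCG2). Of all genes, 5.64% and 4.35% were lower there. No transporter passed 2-fold higher under any alternative. ABCC10 changed sign with sunitinib without scaling (-0.45) and by the mean of its probes (-0.04), and ABCC5 without scaling (-0.85), with median scaling (-0.11) and with normexp at 50 (-0.12).

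Over all genes, 850 passed 2-fold with cordyceps (379 with normexp at 50, 2611 without a filter) and 1943 with sunitinib (8175 without scaling, 1172 with normexp at 50, 7731 without a filter). The higher share of these calls, 52.0% for cordyceps and 49.9% for sunitinib, became 77.0% and 21.5% with median scaling, 25.4% and 2.01% without scaling, and 62.7% and 80.4% without a filter, and 28.2% for sunitinib with normexp at 50. The median of measured genes moved to 0.23 and -0.33 with median scaling and to -0.24 and -1.07 without scaling. Of 175 recomputed transporter ratios, 161 moved by less than their 95% limit and 14 by more. Many of the 161 could hardly move. A change of filter left the ratios as they were, and genes with 1 probe have no other mean. Keeping outlier spots or leaving out bright windows changed only the scale of the arrays, by little. Dim probes also limit these results: ABCC4 rests on 1 probe near background with sunitinib, and ABCC2 and ABCG2 could not be compared.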
